A study of Homo sapiens and Mus musculus with 10 samples.

Results

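The complement genes described here are the 9 genes C3, CFI, CFB, C1R, C1S, CD46, CD55, CD59 and SERPING1, taken by symbol from a human table of 63140 genes. They were followed in A375 cells, an established human melanoma line, cultured for 24 h with LL-37 at 80 µg/mL (LL-37, n = 3) or left untreated (Ctrl, n = 3). LL-37, a human host defence peptide, is released from the precursor protein encoded by CAMP. All 6 libraries came from this 1 line, as biological triplicates per the series text. C3 and CFI were chosen by their TPM in LL-37 against Ctrl libraries, since they passed the test of that contrast once LL-37 replicate 3 was left out, and the other 7 were added as components and regulators of the same system. Every value of that contrast below is therefore a description of the chosen genes and supports nothing beyond it. Levels are TPM, transcript abundances scaled by transcript length and library, so that they can be set side by side between genes, while sequencing depth is unknown.

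Complement is a protease cascade of the blood and tissue fluid. The classical pathway starts with C1r and C1s, the proteases of the C1 complex, and the alternative pathway with factor B, and both lead to the cleavage of C3. Fragments of C3 then mark a surface for uptake and for the membrane attack complex. Host cells are kept from attack by factor I, which cuts C3b with the help of cofactors such as CD46, and by C1 inhibitor (SERPING1). They are also guarded by CD55, which takes apart the C3 convertases, and by CD59, which blocks the membrane attack complex. Hepatocytes make most circulating complement, but many other cells, tumour cells among them, transcribe parts of it and carry the membrane regulators.

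The library of LL-37 replicate 3 differed most from the rest, with correlations of 0.949 to 0.963 to the other 5 against 0.985 to 0.992 among the others, and 12991 genes at 1 TPM or more against 14304 to 14555. The median log2 change of the 14399 tested genes was -0.20 with all libraries and -0.0039 without it. Changes of single complement genes with all libraries are therefore also given relative to the median of all genes. The melanocyte lineage regulator SOX10 was 387, 343 and 147 TPM in LL-37 libraries and 287, 266 and 296 TPM in Ctrl libraries. S100B, another gene of this lineage, was 30.5, 27.1 and 38.2 TPM in LL-37 libraries and 35.0, 37.3 and 36.9 TPM in Ctrl libraries. MITF was 4.40, 4.35 and 1.75 TPM in LL-37 libraries and 5.45, 4.57 and 5.23 TPM in Ctrl libraries. The pigment genes TYR and MLANA were at or near 0, and TYRP1, PMEL and DCT were detected but did not pass the filter. The 8 melanocyte lineage markers summed to 188 to 424 TPM in LL-37 libraries and 310 to 341 TPM in Ctrl libraries, most of it SOX10. The protocol text names keratinocytes as the starting material. KRT1, DSG3 and TP63 were listed at 0 in all 6 libraries and KRT5 in 5 of them, whereas KRT14, DSC3 and KRT10 passed the filter. KRT14 was 1.98, 1.15 and 1.17 TPM in LL-37 libraries and 1.43, 1.66 and 1.61 TPM in Ctrl libraries. DSC3 was 1.94, 1.75 and 0.92 TPM in LL-37 libraries and 2.35, 2.20 and 2.18 TPM in Ctrl libraries. The 7 keratinocyte markers summed to 21.3 to 26.8 TPM in LL-37 libraries and 28.8 to 29.96 TPM in Ctrl libraries, most of it KRT10. The sums in LL-37 and Ctrl libraries were 0.94 to 1.5 and 2.58 to 3.17 TPM for 5 hepatocyte markers (APOB and FGB at 0), 3.41 to 7.97 and 7.18 to 8.02 TPM for 7 fibroblast markers (none at 0 throughout), 22.7 to 41.6 and 35.8 to 42.9 TPM for 6 leukocyte markers, mainly CD68, and 0.94 to 3.27 and 2.08 to 2.56 TPM for 4 endothelial markers (none at 0 throughout). The part of any of these in the complement values was not tested. In bulk RNA, fewer cells with a transcript and less of it per cell cannot be told apart.

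In untreated cells the 3 membrane regulators were the most abundant of the 9 genes, in the order CD55, CD59 and CD46, followed by CFI, C3 and C1R. CFB, C1S and SERPING1 lay at the bottom, below 1 TPM on average. The Ctrl ranges of neighbours in this order were separate throughout, except for CFB and C1S, which overlapped. CD55 ranked 210th, CD59 360th and CD46 1090th among the tested genes by mean Ctrl level, CFI 3443rd, C3 4709th and C1R 8413th. With LL-37 the order changed in 1 place that held in every library: C3 was above CFI in 3 of 3 LL-37 libraries and below it in 3 of 3 Ctrl libraries. Of the 9 genes, 6 had at least 1 TPM in at least 3 libraries and entered the test, and CFB, C1S and SERPING1 did not.

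**Figure D1:**
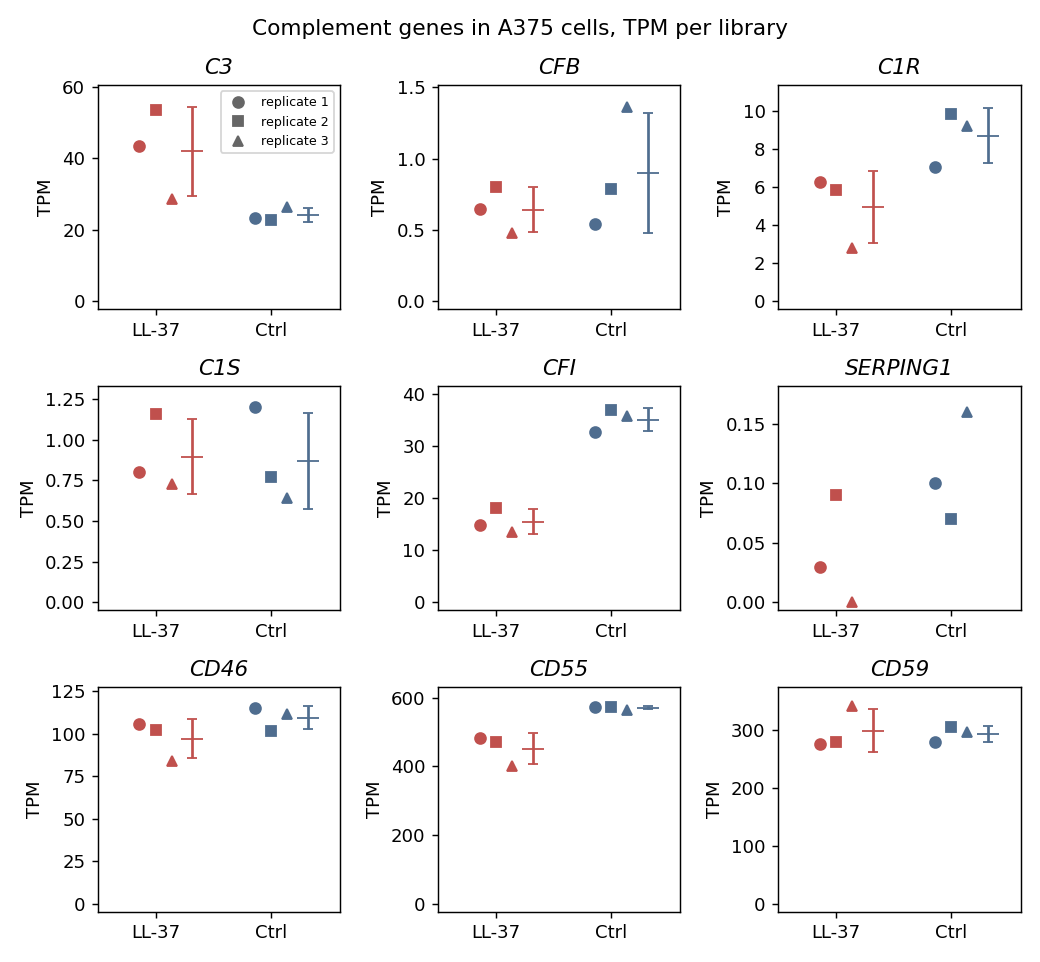
TPM of the 9 complement genes in each LL-37 and Ctrl library (n = 3 each), with replicates as marker shapes and the mean ± SD as bars beside them (no bar for SERPING1, which is listed at 0 in 1 library). C3 lay higher in every LL-37 library than in any Ctrl library, and CFI, C1R and CD55 lay lower.

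CFI, CD55 and C1R were the 3 genes that were lower in every LL-37 library than in any Ctrl library, and their promoters are shown to let them be compared. RefSeq (GRCh38.p14) promoter sequences, 250 bases before to 50 after a transcript start, matched 6 of the 9 genes by symbol (CD55, CD46, CFI, CFB, CD59 and C1R). They are written 5′ to 3′ on the gene's strand in lower case, with motif matches in capitals. C1R has 2 starts in that table.
CFI chr4:109801950-109802249 (-): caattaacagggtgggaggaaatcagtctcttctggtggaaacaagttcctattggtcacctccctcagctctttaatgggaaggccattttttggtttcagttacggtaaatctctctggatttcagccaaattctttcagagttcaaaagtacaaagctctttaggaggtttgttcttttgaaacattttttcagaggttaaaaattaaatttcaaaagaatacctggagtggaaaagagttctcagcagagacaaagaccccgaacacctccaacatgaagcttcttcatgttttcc
CD55 chr1:207321428-207321727 (+): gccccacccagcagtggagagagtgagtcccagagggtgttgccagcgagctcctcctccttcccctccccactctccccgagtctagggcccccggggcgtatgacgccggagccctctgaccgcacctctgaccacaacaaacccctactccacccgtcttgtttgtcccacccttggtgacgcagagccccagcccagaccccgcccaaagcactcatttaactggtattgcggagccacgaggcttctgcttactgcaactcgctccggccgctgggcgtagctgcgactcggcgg
C1R chr12:7092396-7092695 (-): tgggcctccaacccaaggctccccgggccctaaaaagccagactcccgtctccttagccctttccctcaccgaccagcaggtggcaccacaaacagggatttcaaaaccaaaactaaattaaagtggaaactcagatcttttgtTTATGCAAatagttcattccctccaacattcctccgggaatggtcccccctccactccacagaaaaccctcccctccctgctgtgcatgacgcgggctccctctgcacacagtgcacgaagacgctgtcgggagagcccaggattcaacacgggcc
C1R chr12:7091844-7092143 (-): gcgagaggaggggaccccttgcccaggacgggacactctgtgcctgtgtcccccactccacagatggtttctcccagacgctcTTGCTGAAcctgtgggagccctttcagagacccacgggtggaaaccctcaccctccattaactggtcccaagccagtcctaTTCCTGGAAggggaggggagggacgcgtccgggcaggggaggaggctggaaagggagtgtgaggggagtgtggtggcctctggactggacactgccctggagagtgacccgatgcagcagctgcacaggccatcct
The motifs, searched on both strands, were the NF-kB consensus, a STAT motif (TTCNNNGAA), an AP-1 motif (TGANTCA), a CRE (TGACGTCA) and a C/EBP motif (TTGCNNAA), with no overlap among the matches found. Of 35116 RefSeq promoters, 11.3% held the NF-kB, 7.66% the STAT, 7.71% the AP-1, 1.85% the CRE and 10.5% the C/EBP letters. The CFI and CD55 windows held none of the 5. The upper C1R window held a C/EBP match 106 bases before the start, and the lower one a C/EBP match 167 and a STAT match 86 bases before it. The CFB window held an NF-kB match (GGGGCCCTCC) 112 and a STAT match (TTCCGGGAA) 92 bases before its start, and both CD46 windows held none. The 4 CD59 windows each held STAT, AP-1 or C/EBP matches. A match is a description of the letters.

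C3, the central component on which all pathways converge, was higher in the treated cells. It was 43.4, 53.6 and 28.7 TPM in LL-37 libraries, against 23.4, 22.8 and 26.4 TPM in Ctrl libraries. All LL-37 libraries lay above the Ctrl range, but replicate 3 was only just above the highest Ctrl library. The means were 41.9 ± 12.5 TPM with LL-37 and 24.2 ± 1.92 TPM in Ctrl (SD, n = 3 each), a log2 change of 0.73 ± 0.24 (SE) on the log2(TPM + 1) scale, or 0.93 above the median of all genes. Without LL-37 replicate 3 the log2 change was 0.97 ± 0.11 (SE), a fold of 1.96. The gene (ENSG00000125730, chromosome 19, 6677704 to 6730562, minus strand, GRCh38) overlaps GPR108 on the same strand in GENCODE 29. C1R overlaps C1RL, C1S overlaps EMG1, CFI overlaps AC126283.2 and CD59 overlaps AL049629.2 in the same way. How reads of shared stretches were divided is unknown, so that these values carry that uncertainty. AC126283.2 was listed at 0 in every library except Ctrl replicate 2, where it was 0.19 TPM. GPR108 was 93.9, 88.3 and 84.5 TPM in LL-37 libraries and 84.3, 83.3 and 80.9 TPM in Ctrl libraries, a log2 change of 0.099.

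Factor B, the protease that joins C3b to form the alternative pathway convertase, is encoded by CFB and was near the lower end of what was measured. CFB was 0.65, 0.80 and 0.48 TPM in LL-37 libraries and 0.54, 0.79 and 1.36 TPM in Ctrl libraries. The groups overlapped, and Ctrl replicate 3 alone reached 1 TPM. CFB (chromosome 6, 31945650 to 31952084) overlaps C2, its classical pathway counterpart, on the same strand in GENCODE 29, and C2 was below 1 TPM in all libraries.

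C1R and C1S encode the partner proteases of the C1 complex and lie 9167 bases apart on chromosome 12, on opposite strands. C1R (7080199 to 7092607) was 6.28, 5.83 and 2.80 TPM in LL-37 libraries, against 7.06, 9.82 and 9.22 TPM in Ctrl libraries. All LL-37 libraries lay below the Ctrl range, with replicate 3 the lowest. The log2 change was -0.75 ± 0.30 (SE), or -0.55 relative to the median of all genes, and -0.45 ± 0.14 without LL-37 replicate 3. C1S, by contrast, was 0.80, 1.16 and 0.73 TPM in LL-37 libraries and 1.20, 0.77 and 0.64 TPM in Ctrl libraries, with overlapping groups. C1R exceeded C1S in every library, by 7.85, 5.03 and 3.84 times in LL-37 libraries and by 5.88, 12.75 and 14.4 times in Ctrl libraries. These ratios overlapped between the groups.

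Of the soluble inhibitors, CFI, the gene of factor I, was lower in the treated cells. CFI was 14.9, 18.2 and 13.5 TPM in LL-37 libraries, against 32.8, 36.9 and 35.8 TPM in Ctrl libraries. The groups were far apart, with the highest LL-37 library well below the lowest Ctrl library, and replicate 3 was close to the other LL-37 libraries. The means were 15.5 ± 2.43 TPM with LL-37 and 35.1 ± 2.13 TPM in Ctrl (SD, n = 3 each). The log2 change was -1.14 ± 0.16 (SE), or -0.94 relative to the median of all genes, and -1.05 ± 0.10 without LL-37 replicate 3. CFI, whose promoter window held none of the motifs searched, lies on chromosome 4 (ENSG00000205403, 109740694 to 109802179, minus strand). SERPING1, the serpin that inactivates C1r and C1s, was 0.03, 0.09 and 0 TPM in LL-37 libraries and 0.10, 0.07 and 0.16 TPM in Ctrl libraries, too low to compare.

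None of the 3 membrane regulators passed the test in either fit, and differences in change among them were not tested. CD55, which takes apart the convertases, was 484, 471 and 400.0 TPM in LL-37 libraries, against 574, 572 and 565.5 TPM in Ctrl libraries. The Ctrl libraries lay close together and all LL-37 libraries lay below them, a log2 change of -0.34 ± 0.10 (SE) that was -0.14 relative to the median of all genes, and -0.26 ± 0.048 without LL-37 replicate 3. CD46 was 105, 102 and 83.9 TPM in LL-37 libraries and 115, 102 and 111 TPM in Ctrl libraries, with overlapping groups. Its log2 change of -0.17 ± 0.13 (SE) was 0.026 relative to the median of all genes, and its sign turned with median-of-ratios scaling (0.074). CD59 was 276, 278 and 342 TPM in LL-37 libraries and 278, 305 and 296 TPM in Ctrl libraries. The groups overlapped, with the highest value of all in LL-37 replicate 3. The log2 change was 0.020 ± 0.12 (SE), or 0.22 relative to the median of all genes, and -0.080 ± 0.059 without that library. CD55 and CD46 lie in the regulator cluster of chromosome 1, within 474138 bases that also hold CR2, CR1 and CR1L, while CD59, of an unrelated protein family, lies on chromosome 11 (33703010 to 33736491).

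Over all genes, the share called by limma at an adjusted p under 0.05 was 0% with all libraries, and 2.52% had an unadjusted p under 0.05. Of the 6 tested complement genes, 0 were called and 4 had an unadjusted p under 0.05 (C3, CFI, C1R and CD55, limma, adjusted p = 0.739 for each). Without LL-37 replicate 3, 0.118% of genes were called, among them C3 (limma, adjusted p = 0.0233) and CFI (adjusted p = 0.0120), the result that chose them. The other 4 were outside the threshold in that fit, CD55 at an adjusted p of 0.108, C1R at 0.363, CD59 at 0.796 and CD46 at 0.863, which does not show that they were unchanged. The C3 and CFI calls ended when median-of-ratios scaling was added (limma, adjusted p = 0.0749 for C3 and 0.0737 for CFI), with all but the same log2 changes. LL-37 and Ctrl values were fully separate in 4 of the 6 genes, 1 higher and 3 lower, where 2.13% of all tested genes were apart in the higher and 10.3% in the lower direction. The median log2 change of the 6 was -0.26 with all libraries, against -0.20 over all tested genes, and -0.17 without LL-37 replicate 3, against -0.0039.

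**Figure D2:**
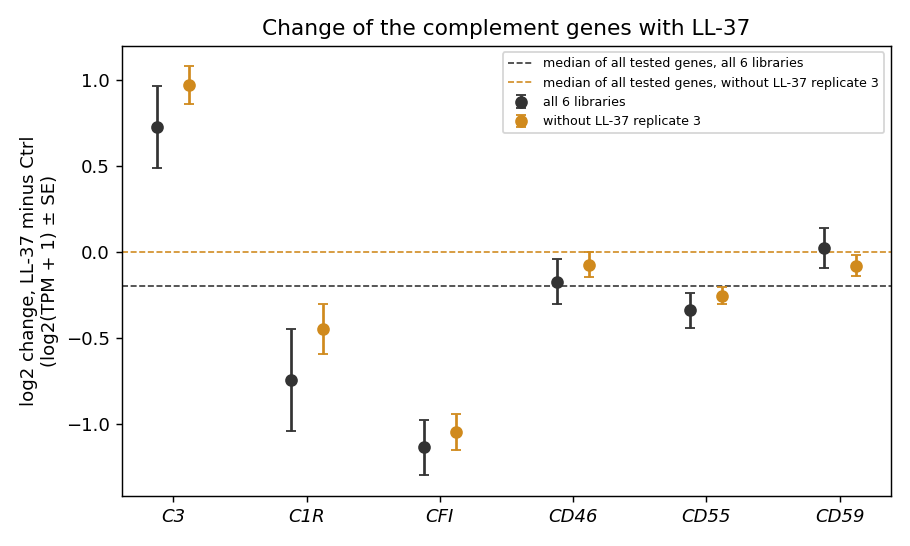
Log2 change (LL-37 minus Ctrl, log2(TPM + 1), ± SE) of the 6 tested complement genes with all 6 libraries (black) and without LL-37 replicate 3 (orange), with dashed lines at the median of all tested genes. C3 lies above and CFI, C1R and CD55 below both medians, CD55 at -0.14 and -0.25 relative to them, whereas CD46 and CD59 lie within 0.23 of them.

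The values of LL-37 replicate 3 were set against the same Ctrl libraries as those that chose C3 and CFI, and are a description. Against the mean of the Ctrl libraries it was 0.24 higher for C3 and 1.32 lower for CFI on the log2(TPM + 1) scale (log2 differences 0.24 and -1.32). In this library long transcripts were lower as a group: over 5 length classes, the median difference from the Ctrl mean was -0.087 in the shortest and -1.08 in the longest class, while the mean of replicates 1 and 2 stayed within 0.008 of the Ctrl mean in every class. The median was -0.35 in the class of CFI (2368 bases) and -0.85 in that of C3 (5263 bases). For C1R (3501 bases) the difference was -1.34 and for CD55 (2892 bases) -0.51, in a class with a median of -0.62. CD46 (7826 bases) was at -0.38 and CD59 (7631 bases) at 0.22, both in the longest class. The part of transcript length in the complement values was not tested.

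**Figure D3:**
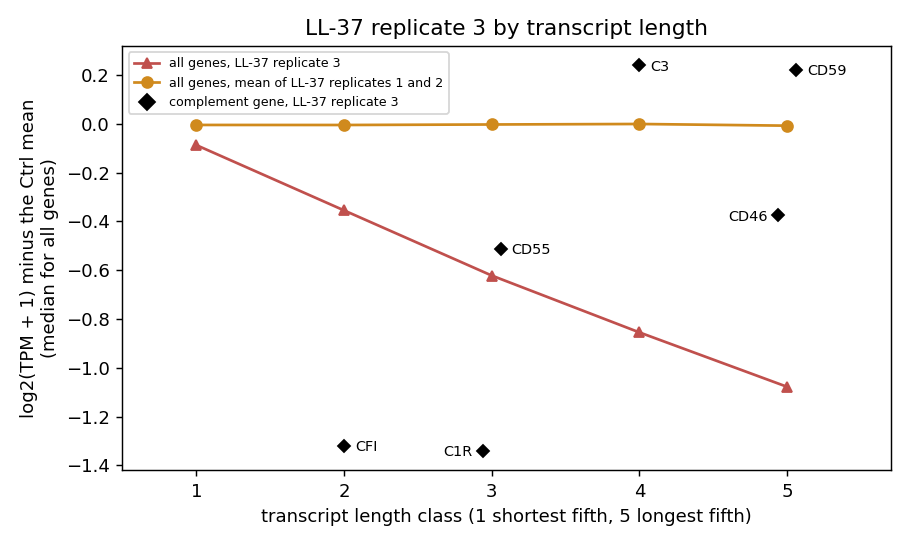
Difference of LL-37 replicate 3 (red triangles) and of the mean of LL-37 replicates 1 and 2 (orange circles) from the Ctrl mean, as the median of all tested genes in 5 classes of transcript length, with the 6 complement genes in LL-37 replicate 3 as black diamonds. C3, CD46, CD55 and CD59 lie above, and CFI and C1R below, the median of their length class.

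Ratios between genes of the same library are not moved by its scaling. Differences by transcript length, as seen in LL-37 replicate 3, can move them, and their part in these ratios was not tested. The ratio of C3 to CFI, chosen after the values were seen, was 2.92, 2.95 and 2.13 in LL-37 libraries, against 0.715, 0.618 and 0.738 in Ctrl libraries. The groups were far apart, and the mean log2 ratio differed by 1.94. It differed by 2.09 without LL-37 replicate 3. The ratio of CD55 to CD59, the regulators that carry a lipid (GPI) anchor, was 1.75, 1.69 and 1.17 in LL-37 libraries and 2.07, 1.87 and 1.91 in Ctrl libraries. All LL-37 ratios were the lower ones, and the difference of -0.36 in mean log2 ratio was -0.18 without LL-37 replicate 3. The ratio of CD46 to CD55 was 0.218, 0.216 and 0.210 in LL-37 libraries and 0.200, 0.178 and 0.197 in Ctrl libraries, a difference of 0.17 in mean log2 ratio. Summed, the 3 membrane regulators made up 865, 851 and 825 TPM in LL-37 libraries and 967, 979 and 973 TPM in Ctrl libraries. CD55 supplied 55.9%, 55.4% and 48.5% of that sum in LL-37 libraries and 59.4%, 58.4% and 58.1% in Ctrl libraries.

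**Figure D4:**
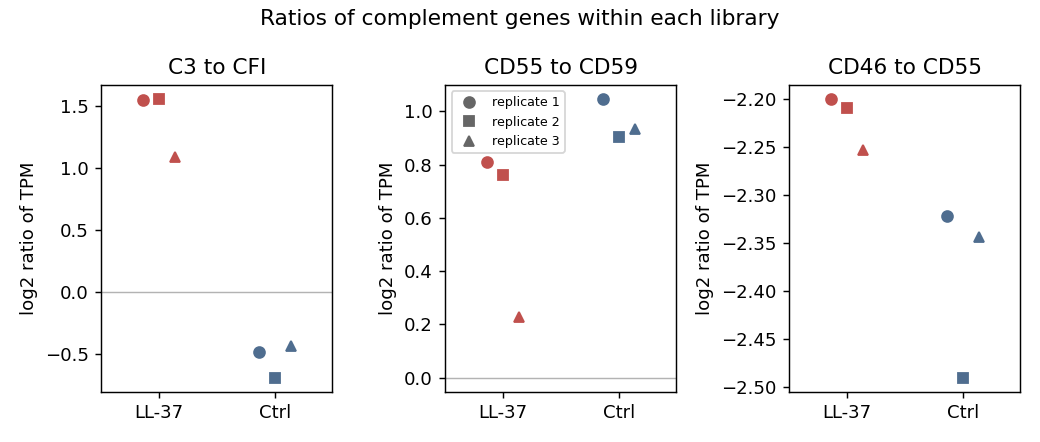
Log2 ratio of TPM within each library for C3 to CFI, CD55 to CD59 and CD46 to CD55, for LL-37 and Ctrl libraries (n = 3 each, replicates as marker shapes). The C3 to CFI ratio lies above 0 in every LL-37 library and below 0 in every Ctrl library.

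The remaining complement genes were largely silent in these cells. Of 57 genes counted as other components, regulators and receptors, 16 were listed at 0 in all 6 libraries and 13 passed the filter. None of the 13 was called with all libraries (limma), and 6 had an unadjusted p under 0.05, where 2.52% of all genes had one. None was called without LL-37 replicate 3 either, with 6 at an unadjusted p under 0.05, where 9.01% of all genes had one. LL-37 and Ctrl values were fully separate in 8 of the 13, 3 higher and 5 lower, where the shares over all tested genes were 2.13% higher and 10.3% lower. The median log2 change of the 13 was -0.31 against -0.20 over all tested genes (-0.15 against -0.0039 without LL-37 replicate 3).

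Among the initiators, the C1q genes C1QA, C1QB and C1QC were listed at 0 in all libraries, and 4 of 18 genes passed the filter. C4B, which supplies the classical C3 convertase, was 1.86, 0.93 and 0.36 TPM in LL-37 libraries and 3.09, 2.41 and 2.54 TPM in Ctrl libraries. C4A and C4B are nearly identical copies, so that the division of reads between them is uncertain. PTX3, a pentraxin that binds C1q, was 3.80, 4.50 and 2.95 TPM in LL-37 libraries and 2.43, 2.65 and 2.15 TPM in Ctrl libraries. These groups did not overlap in either gene, lower with LL-37 for C4B and higher for PTX3. The alternative pathway genes CFD, which encodes the protease that activates factor B, and CFP, which encodes the convertase stabiliser properdin, were below 1 TPM in every library. CFP was 0.08, 0.26 and 0.22 TPM in LL-37 libraries and 0.83, 0.64 and 0.71 TPM in Ctrl libraries.

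Of 7 terminal pathway genes, C8G alone passed the filter, and C8A, C8B and C9 were listed at 0. C8G was 1.6, 1.51 and 1.07 TPM in LL-37 libraries and 0.51, 0.72 and 0.77 TPM in Ctrl libraries, with no overlap. C5, whose cleavage opens the terminal pathway, was 0.09, 0.24 and 0.39 TPM in LL-37 libraries and 0.39, 0.22 and 0.23 TPM in Ctrl libraries. The soluble regulator CLU (clusterin), which holds back the membrane attack complex, was 4.77, 7.34 and 6.48 TPM in LL-37 libraries, against 13.75, 10.5 and 15.1 TPM in Ctrl libraries. All LL-37 libraries lay below the Ctrl range. The log2 change was -0.97 ± 0.22 (SE), or -0.77 relative to the median of all genes. Without LL-37 replicate 3 it was -1.01 (limma, adjusted p = 0.105). CPN1, the catalytic subunit of the carboxypeptidase that inactivates the anaphylatoxins, was 8.55, 9.39 and 10.8 TPM in LL-37 libraries and 6.64, 6.89 and 7.55 TPM in Ctrl libraries. Of 13 genes counted as soluble regulators, 3 passed the filter. The last of the 3 was SERPINA1, a protease inhibitor that is not a complement regulator in the strict sense, with overlapping groups.

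Among 6 other membrane regulators, CR1 was listed at 0 and CSMD1 and CSMD3 passed the filter. CSMD1 was 3.76, 3.49 and 0.83 TPM in LL-37 libraries and 4.54, 4.30 and 4.31 TPM in Ctrl libraries, and CSMD3 overlapped between the groups. Of 11 receptors, 3 passed and all 3 overlapped. C1QBP, a largely mitochondrial protein that also binds C1q, was 490.0, 513 and 763 TPM in LL-37 libraries and 552, 543 and 495 TPM in Ctrl libraries. LRP1, an uptake receptor of the LDL receptor family, was 29.98, 31.2 and 8.52 TPM in LL-37 libraries and 30.6, 28.9 and 34.9 TPM in Ctrl libraries. For both, the values that stand apart are those of LL-37 replicate 3.

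**Figure D5:**
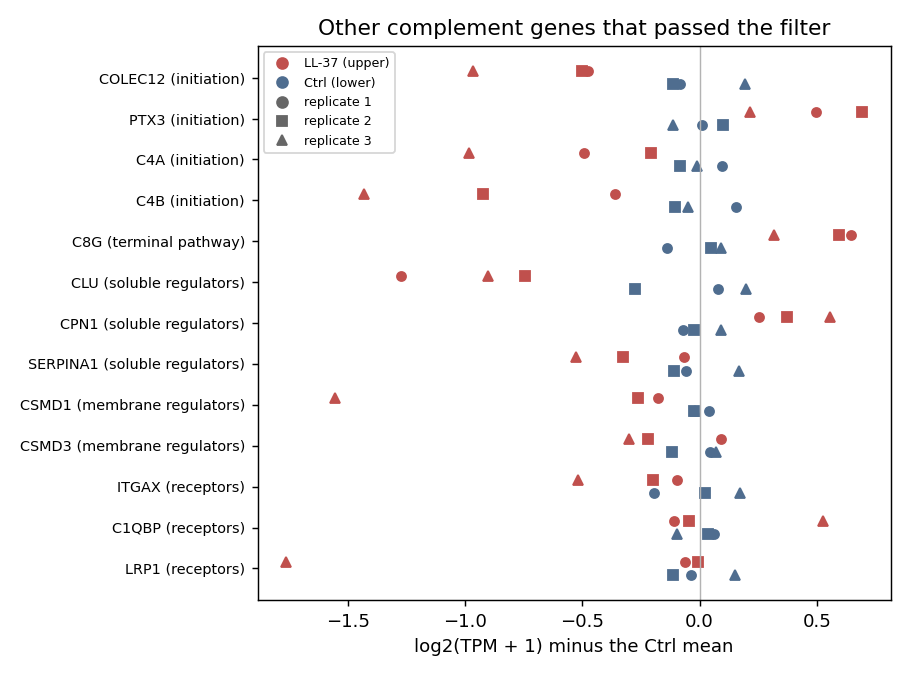
Values of log2(TPM + 1) minus the Ctrl mean in each LL-37 library (red, upper row of each gene) and Ctrl library (blue, lower row) for the 13 other complement genes that passed the filter. COLEC12, C4A, C4B, CLU and CSMD1 lie below, and PTX3, C8G and CPN1 above, all Ctrl libraries in every LL-37 library.

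Gene groups that touch the complement genes were described in the same way. A2M, a protease inhibitor of the same thioester protein family as C3, was 18.3, 20.5 and 8.10 TPM in LL-37 libraries, against 43.4, 43.9 and 51.5 TPM in Ctrl libraries. Of the 5 thioester relatives 2 were tested, and A2M was the 1 called without LL-37 replicate 3 (limma, adjusted p = 0.00651), where 0.118% of all genes were called. CD109, the other relative that passed the filter, was 45.8, 42.1 and 18.2 TPM in LL-37 libraries and 47.1, 41.3 and 47.7 TPM in Ctrl libraries, so that A2M and C3 lay on opposite sides of their Ctrl ranges and CD109 overlapped its own. Next were 29 genes counted as assembling or processing the GPI anchor, which CD55 and CD59 carry. Of these, 28 were tested and 0 were called in either fit (limma, 0 with an unadjusted p under 0.05). In 7 of the 28 the groups did not overlap, all lower, where 10.3% of all tested genes were apart in that direction. The median log2 change of the 28 was -0.25 against -0.20 over all tested genes (-0.055 against -0.0039 without LL-37 replicate 3). The most abundant were DPM3, at 310, 363 and 637 TPM in LL-37 libraries and 371, 376 and 343 TPM in Ctrl libraries, and DPM1, whose groups overlapped.

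Among 21 acute phase genes and signals that induce C3 or CFB in other cells, 14 were tested and 0 were called in either fit (limma, 3 with an unadjusted p under 0.05, or 7 when LL-37 replicate 3 was left out, where all genes gave 2.52% and 9.01%). The groups were apart for 3 higher and 3 lower genes, where the shares over all tested genes were 2.13% and 10.3%. CEBPB, a transcription factor of the acute phase response, was 91.96, 89.1 and 63.1 TPM in LL-37 libraries and 71.1, 71.8 and 71.9 TPM in Ctrl libraries. Here replicates 1 and 2 lay above and replicate 3 below all Ctrl libraries. RELA, the p65 subunit gene of NF-kB, was 62.2, 56.0 and 27.7 TPM in LL-37 libraries and 54.3, 56.2 and 60.6 TPM in Ctrl libraries. The cytokine genes IL6 and TNF were below 0.1 TPM throughout, and the acute phase genes SAA1, SAA2, HP and ORM1 were listed at 0.

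The genes whose pattern was most like that of C3 and CFI were sought among 9562 genes with a mean of at least 5 TPM, by Pearson's r of log2(TPM + 1) over the 6 libraries, which share their groups and scaling. For C3 these were PRSS23, TINAGL1, EMP3, PLEKHF1 and PTHLH (r = 0.953 to 0.975). For CFI they were TFAM, SERPINA3, TIMP1, CHMP2A and ID1 (r = 0.989 to 0.994). Pearson's r takes no account of the size of a difference, and these genes differed less than C3 and CFI did. PRSS23 was 25.6, 26.1 and 22.9 TPM in LL-37 libraries and 20.4, 20.8 and 21.5 TPM in Ctrl libraries. TFAM was 19.3, 20.1 and 18.0 TPM in LL-37 libraries and 23.8, 24.4 and 24.0 TPM in Ctrl libraries. SERPINA3, an acute phase serpin, was 546, 614 and 551 TPM in LL-37 libraries and 751, 824 and 799 TPM in Ctrl libraries, lower in every LL-37 library. Over the 5 libraries without LL-37 replicate 3 the 5 genes nearest to C3 were others (FJX1, SLC25A45, CPT1B, ARHGAP4 and PROSER3), and those nearest to CFI were TFAM, ULK4, SERPINF1, SLC16A4 and CDKN2C, so that TFAM alone was on both lists.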

How the data were processed

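Gene expression in A375 cells was measured by RNA-seq with a stranded mRNA kit, per the labels' protocols. The authors deposited 63140 rows of TPM, a unit with a fixed total per library. The submitters' processing notes name GRCh38. For the aligner, quantifier and use of strand, the answer is not given in the sources used here. These values keep no depth, so no counting interval is given, and since each library sums to 1 total, its values are relative to each other. The mouse libraries of the series were not analysed here.

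Of the Ensembl identifiers, 62541 had a symbol. The test used log2(TPM + 1) of genes reaching 1 TPM in 3 or more of the 6 libraries, by the two-sided moderated test of limma 3.58.1 (R 4.3.3, intensity trend), with Benjamini-Hochberg adjustment over all tested genes and a threshold of 0.05. The genes tested stayed the same when a library was left out. The 9 members and the gene lists were chosen with earlier results of these data known. Named beyond the members were genes of each list past the threshold with all libraries or without LL-37 replicate 3, the 2 most abundant in Ctrl, and the 5 most like C3 and CFI. GPR108, C4A, COLEC12, the genomic neighbours, IL6, TNF and genes listed at 0 were named after their values were seen. Coordinates, overlaps and the longest transcript per gene came from GENCODE 29 (length for 96.4% of tested genes), promoters from RefSeq. The test was checked on simulated data with independent noise in each gene and library. Those data held no shift by transcript length in 1 library, so the check does not cover LL-37 replicate 3. Settings tried instead were 2 other pseudocounts (0.1 and 5), 2 other filters (none and 5 TPM), 3 scalings, a replicate block, no trend, and each library left out, the last for LL-37 replicate 3 also with a second change.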

Additional observations from a re-analysis of the deposited data

How the results depend on the processing

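The count of 0 genes called over all tested genes became 17 without LL-37 replicate 3, 9 with median-of-ratios scaling added to that, 20 with a pseudocount of 0.1 added and 2 with the replicate block added, and leaving out each library gave 0 to 17. Of the complement members, 0 to 2 were called when each library was left out, and 2 without LL-37 replicate 3 with a pseudocount of 0.1. With the replicate block added, the adjusted p was 0.139 for C3 and 0.0727 for CFI and for A2M. With all libraries the replicate block gave 0 calls. Same-numbered libraries deviated from their group means with correlations of 0.091, -0.196 and -0.168, so that the numbers were not taken to pair the samples. The other complement genes gave 0 calls under every alternative run. The median log2 change with median-of-ratios scaling was 0.0070 over all genes and -0.0081 over the members. The log2 change of C3 stayed above 0 (0.53 to 1.03) and those of CFI (-1.25 to -0.90), C1R (-0.92 to -0.41) and CD55 (-0.39 to -0.090) below 0 under every alternative run. CD46 turned to 0.074 with median-of-ratios scaling. CD59 was 0.27 with median-of-ratios scaling, ranged from -0.080 to 0.073 over libraries left out, and was -0.079, -0.081 and -0.073 without LL-37 replicate 3 with median-of-ratios scaling, a pseudocount of 0.1 and the replicate block. In the same 3 settings C1QBP turned to -0.078, -0.079 and -0.13, DPM3 to -0.113, -0.114 and -0.15, and RELA to 0.04996, 0.0499 and 0.093, and LRP1 turned to 0.041 with the block. Over libraries left out, C1QBP ranged from -0.078 to 0.24, DPM3 from -0.11 to 0.41 and RELA from -0.52 to 0.049. CSMD3 turned to 0.0069 with median-of-ratios scaling and to 0.030 with quantile normalization, and DPM1 to 0.17 with median-of-ratios scaling. The difference in log2 ratio of CD46 to CD55 was 0.11 to 0.20 over libraries left out, that of CD55 to CD59 -0.47 to -0.18, that of C1R to C1S -1.35 to -0.70, and that of C3 to CFI 1.86 to 2.09. The cause of these shifts was not tested. Depth is unknown, so that values below 1 TPM carry no stated precision.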

Other observations

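The genomic neighbours of the complement genes with the largest differences were looked up in GENCODE 29. PLA2G12A, which lies 10617 bases beyond the end of CFI, was 12.05, 8.90 and 12.8 TPM in LL-37 libraries and 6.87, 6.21 and 8.56 TPM in Ctrl libraries, higher in every LL-37 library while CFI was lower (limma without LL-37 replicate 3, adjusted p = 0.397). GAR1, on its other side, was 59.1, 56.2 and 27.2 TPM in LL-37 libraries and 67.9, 48.6 and 52.8 TPM in Ctrl libraries, with overlapping groups. TRIP10, next to C3, was 29.2, 26.1 and 15.8 TPM in LL-37 libraries and 28.5, 27.2 and 26.9 TPM in Ctrl libraries, also overlapping. C1RL, which overlaps C1R on the same strand, was 12.2, 7.97 and 4.24 TPM in LL-37 libraries and 9.74, 9.08 and 9.75 TPM in Ctrl libraries. These neighbours were looked at after the values of the complement genes were known.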
